A study of Oryzias latipes with 10 samples.

Results

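The cytosolic ribosomal protein genes of the medaka (Oryzias latipes), a small freshwater fish, were followed in the liver of wild-type animals (WT) and of animals in which the phod1 gene, written pd1 in some labels, had been knocked out (KO). Members were the genes whose RefSeq symbol is that of a cytosolic ribosomal protein (rps, rpl, rpsa, rplp0 to rplp2 or fau, without the rps6k kinases) and that reached 1 RPM in 5 or more of the 10 libraries. RPM, the unit of the deposited values, is reads per 1000000 reads of a library. The symbol rule found 66 of the 25795 genes in the table, and all 66 passed the RPM filter, 30 of the small and 36 of the large subunit. Ribosomal protein genes that RefSeq lists under other symbols were not analysed here. Fish of both groups lived under long days, liver was collected at 12:00, and 5 libraries per group were prepared with the Lasy-Seq protocol, which sequences transcripts from their 3' ends. The labels give no sex, age, batch or knockout allele, and do not say that the libraries came from separate animals, so each p-value speaks only of the spread among these libraries.

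The ribosome translates messenger RNA into protein, and each of its subunits is built from ribosomal RNA and many small proteins, most of them in a single copy. The small subunit reads the message at its decoding centre, while the large subunit joins amino acids and passes the new chain out through its exit tunnel. In vertebrates most ribosomal protein messages carry a pyrimidine-rich start (the TOP motif), through which TOR kinase signalling, with the RNA-binding protein Larp1, sets their translation as a group. The liver, which secretes plasma proteins and, in female fish, yolk and egg envelope proteins, holds large amounts of these transcripts.

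Sequencing depth was 5422342 to 9803543 reads for WT libraries and 4542721 to 10112313 for KO libraries. The shallowest count of a ribosomal protein gene was 1043 reads, and the median was 10335, so the counting error of 1 gene in 1 library was at most 3.10%. That is less than the spread between libraries, whose coefficient of variation had a median of 9.94% in WT and 10.9% in KO. No gene of the name table is called phod1 or pd1, and the knocked-out gene's own level was therefore not examined. Of the hepatocyte markers 5 were matched (hpx, fgb, fgg, fga and rbp4). Their sum was 7682 to 18300 RPM in WT and 18750 to 24850 in KO, without overlap. In limma 1 of them, hpx, was called higher as deposited, where 1.17% of all genes tested were. After TMM scaling 4 of the 5 were called higher, where 303 of all 14984 genes tested were. Much of the sum was hpx, with means of 5159 RPM in WT and 12080 in KO. The level of rbp4 was 2853 ± 523.5 RPM in WT and 2910 ± 548.4 in KO, a log2 fold change of 0.03. The 3 leukocyte markers summed to 41.5 to 193 RPM in WT and 36.3 to 58.3 in KO. The lists for erythrocytes and pancreatic acinar cells matched no symbol, that for ovary or testis had no gene that passed the filter (sum at most 2.47 RPM), the 4 stellate cell markers summed to at most 33.3 RPM, the 3 endothelial ones to at most 16.3 and the single cholangiocyte marker, sox9, to at most 44.3. The part of the cell makeup in the results below was not tested, and in bulk tissue fewer cells of a type and less RNA per cell cannot be told apart.

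Ribosomal protein transcripts took a smaller share of the reads in KO liver than in WT liver, with overlap between the groups. In order from WT1 to WT5, the 66 genes together took 12.4%, 10.4%, 11.2%, 11.8% and 12.5% of all reads. From KO1 to KO5 they took 8.41%, 9.06%, 10.6%, 10.3% and 10.2%. KO1 and KO2 were the lowest libraries, and WT2, the lowest of WT, lay below KO3. Group means were 11.7% ± 0.903 in WT and 9.69% ± 0.913 in KO (SD, n = 5 each). No p is given for sums over the genes, which were chosen with earlier results of these data known. The share was lower in KO in both subunits, and the difference between subunits was not tested. The small subunit took 5.26% ± 0.435 of the reads in WT and 4.38% ± 0.429 in KO, and the large subunit 6.39% ± 0.477 and 5.31% ± 0.496. The ratio of small to large subunit reads was 0.823 ± 0.0213 in WT and 0.825 ± 0.0264 in KO.

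How large the difference was, and whether the groups overlapped, depended on what the reads were measured against. The egg protein genes vit-6 and ol-vit1 (vitellogenins, the yolk precursors) and 1-sf (an egg envelope protein) took 2.77% to 13.98% of the reads in WT and 0.429% to 6.95% in KO. WT3 alone was at 2.77%, the other WT libraries at 10.4% or more. KO2 alone was at 6.95%, above WT3, and the other KO libraries at 0.593% or less. Measured against the reads outside the 3 egg protein genes, ribosomal protein genes took 11.5% to 14.6% in WT and 8.46% to 10.6% in KO, without overlap. TMM scaling, which sets libraries level on the bulk of their genes, had factors of 0.981 to 1.12 in WT and 0.773 to 1.11 in KO. After TMM scaling the share was 10.9% ± 1.24 in WT and 10.5% ± 1.31 in KO. The lowest library was then KO2, at 8.20%, while KO1, at 10.9%, lay above WT2, WT3 and WT4.

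**Figure D1:**
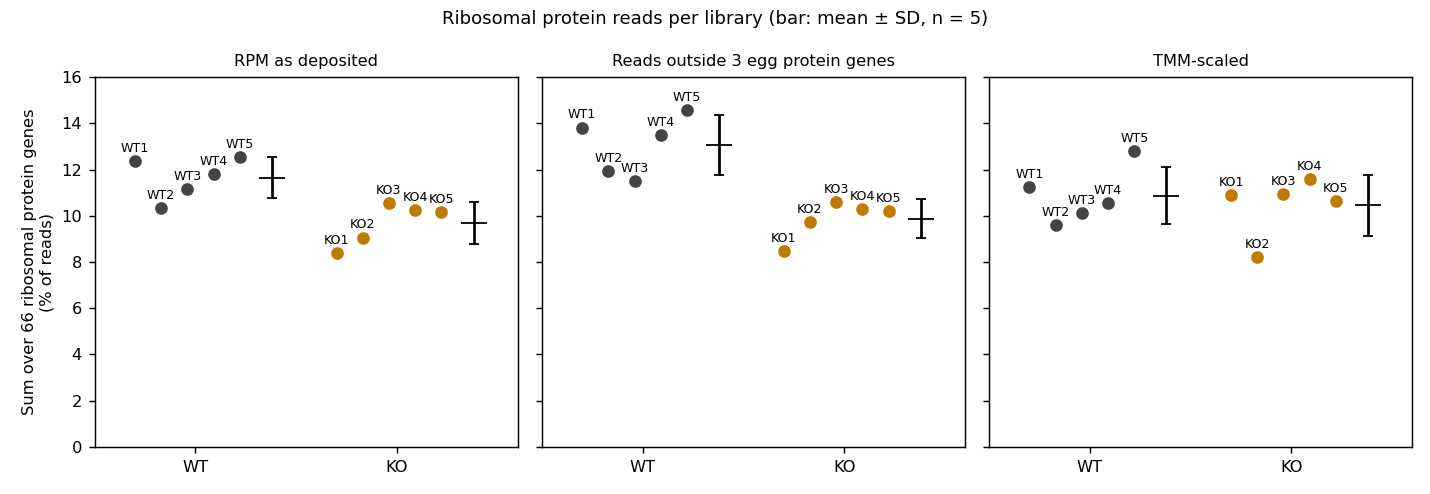
Share of reads on the 66 ribosomal protein genes (y axis, % of reads) in each WT and KO library, as deposited (left), against the reads outside 3 egg protein genes (middle) and after TMM scaling (right), with the mean ± SD of each group (n = 5). The group means were 11.7% and 9.69% as deposited, 13.1% and 9.87% outside the egg protein genes, and 10.9% and 10.5% after TMM scaling.

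The genes moved together from library to library. For each gene, the deviation of every library from the gene's mean over the 10 libraries was taken on the scale of log2(RPM + 1). The median deviation over the 66 genes was 0.23, -0.05, 0.09, 0.16 and 0.25 from WT1 to WT5. From KO1 to KO5 it was -0.34, -0.23, -0.01, -0.04 and -0.05. Around these medians the genes spread by an SD of only 0.07 to 0.11 within a library. KO1 was the lowest of the 10 libraries for 49 genes and KO2 for the other 17. WT5 was the highest for 31 genes, WT1 for 26, WT4 for 8 and WT3 for 1. Among WT libraries, WT2 was the lowest for 47 genes, and among KO libraries, KO3 was the highest for 34. The same counts were not taken over all genes, so these patterns are not shown to be particular to the members. KO1 also had the lowest TMM factor, at 0.773, and the part of a library-wide scale was not tested. WT5 and KO5 were the deepest libraries of their groups and KO2 was the shallowest of all, and the part of depth was not tested. As a share of the ribosomal protein sum rather than of all reads, the median coefficient of variation of a gene was 6.23% in WT and 5.17% in KO.

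**Figure D2:**
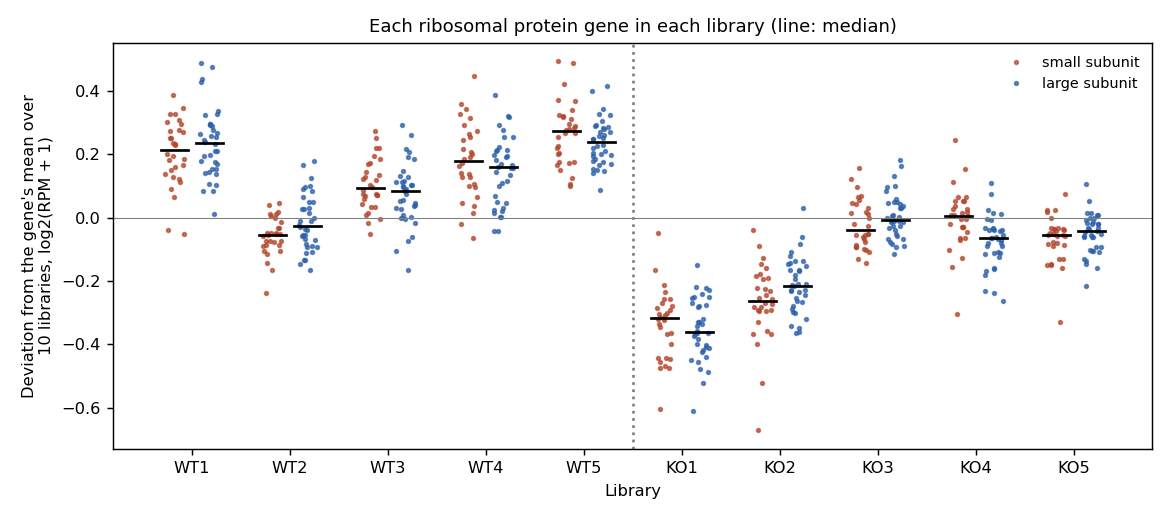
Deviation of each ribosomal protein gene from its mean over the 10 libraries (y axis, log2(RPM + 1)) by library (x axis), small subunit in red and large subunit in blue, with the median of each subunit as a line. Both subunits sit together in every library, lowest in KO1 (overall median -0.34) and highest in WT5 (0.25).

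No ribosomal protein gene passed the test on its own. Values were tested with limma over the 14984 genes that passed the RPM filter, as KO minus WT on the log2(RPM + 1) scale, and a gene was called at a Benjamini-Hochberg adjusted p under 0.05. Of all genes tested, 1.68% were called lower and 1.17% higher. Among the 66 members, 0 were called in either direction in limma, against 13 with an unadjusted p under 0.05, all 13 lower in KO. Over all genes tested 11.7% were lower in KO with an unadjusted p under 0.05. Because the members moved together from library to library, the 13 are not independent of each other. On recovered reads of 9 libraries, the quasi-likelihood test of edgeR and DESeq2 called 0 members too, with 0 members at an unadjusted p under 0.05 in either (1.19% and 3.26% of all genes tested were called). Both count tests also rescale the libraries. In limma, 0 members had an unadjusted p under 0.05 after TMM scaling, and 54 when rescaled to the reads outside the egg protein genes. The share of all genes at that level was not taken for these settings, so the 54 cannot be set against a background. In the fit outside the egg protein genes the median log2 fold change was -0.41 in members and -0.31 over all genes tested.

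The log2 fold change was below 0 in all 66 members, while 67.3% of all genes tested lay below 0. The members moved together from library to library, so the 66 are not independent of each other. The 67.3% was not matched for level. The median log2 fold change was -0.27 in each subunit and -0.19 over all genes tested, a difference of -0.08 between members and all genes. Values ran from -0.50 to -0.12 in the small and from -0.40 to -0.14 in the large subunit, with standard errors of 0.15 to 0.19. By the ratio of group means, KO levels were 70.7% to 91.9% of WT levels. The upper bound of the limma 95% interval lay between -0.13 and 0.22 for every member and the lower bound between -0.87 and -0.46.

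In the small subunit the lowest fold changes were those of rps12, rps23, rps21 and rps18. The product of rps12 sits in the head of the subunit and is known in Drosophila for its part in cell competition. Its level was 2072, 1524, 1879, 2117 and 2318 RPM in the WT libraries, and 1085, 1447, 1547, 1338 and 1589 RPM in the KO libraries, each in order of number. WT2 was the only WT library within the KO range. Its log2 fold change was -0.50 ± 0.18 (SE, 95% interval -0.87 to -0.13), with a limma adjusted p of 0.149.

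The decoding centre protein gene rps23 had 2215, 1740, 2031, 2068 and 2257 RPM in WT and 1281, 1213, 1743, 1596 and 1637 RPM in KO. Only KO3 and WT2 crossed, by a few RPM. The log2 fold change was -0.47 ± 0.17 (limma adjusted p = 0.156). For rps18, another head protein gene, WT libraries had 1834, 1550, 1974, 2071 and 2109 RPM and KO libraries 1174, 1335, 1525, 1556 and 1474. Here WT2 lay just below KO4, and the log2 fold change was -0.43 ± 0.16 (limma adjusted p = 0.191). The gene rps21 had lower levels, at 575, 507, 595, 572 and 705 RPM in WT and 367, 314, 516, 593 and 398 in KO. It varied most between KO libraries, KO4 reaching the level of WT3, at a log2 fold change of -0.46 ± 0.19 (limma adjusted p = 0.218).

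At the other end stood rps4x and rps3. The body protein gene rps4x, whose human counterpart is X-linked, had WT levels of 2546, 2550, 2630, 2909 and 3176 RPM and KO levels of 2354, 2307, 2545, 2857 and 2635 RPM. The groups lay across each other, and the log2 fold change of -0.12 had a 95% interval of -0.46 to 0.22. For rps3, a protein of the channel through which the message enters, the means were 2305 ± 211 and 2105 ± 220 RPM (-0.13, interval -0.47 to 0.21). The abundant member rps2, of the same entry channel, had a log2 fold change of -0.19. The fewest reads fell on rps10, a head protein that is marked with ubiquitin on stalled ribosomes in human cells, with 292 ± 31.3 RPM in WT and 251 ± 22.4 in KO. RPM were not divided by length, and levels are shares of reads rather than transcript numbers.

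Some small subunit members have roles beside their place in the ribosome. The product of rps6 is a target of S6 kinase, and its phosphorylation, not measured here, is a standard readout of TOR signalling. The transcript averaged 2286 ± 236 RPM in WT and 1892 ± 192 RPM in KO, a log2 fold change of -0.27 with a limma adjusted p of 0.421. The laminin-binding protein gene rpsa had 1978 ± 275 and 1523 ± 185 RPM (-0.38, limma adjusted p = 0.275). Both genes that encode a ribosomal protein fused to ubiquitin or a ubiquitin-like protein were members. Neither passed the test, rps27a at -0.15 (interval -0.49 to 0.19; 0.06 under TMM) and fau at -0.27 (interval -0.60 to 0.06). The gene rps19, mutated in human Diamond-Blackfan anaemia, had 2063 ± 122 and 1742 ± 190 RPM (-0.25). Over the 13 proteins of the head and the 17 of the body and platform the median log2 fold change was -0.27 in each.

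**Figure D3:**
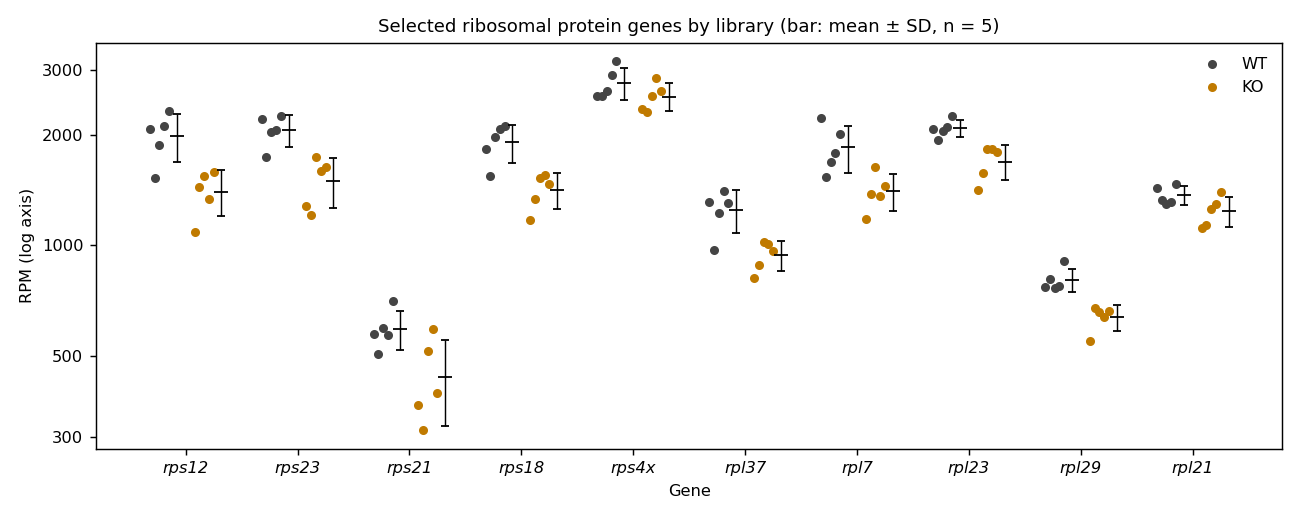
Level of 10 ribosomal protein genes (y axis, RPM on a log axis) in each WT (grey) and KO (orange) library, with the mean ± SD of each group (n = 5). The groups are nearly apart for rps12, rps23 and rps18, fully apart for rpl23 and rpl29, and overlap widely for rps4x and rpl21.

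In the large subunit the genes of lowest p were rpl37, rpl7, rpl39 and rpl10a. The level of rpl37 was 1317, 973, 1229, 1408 and 1305 RPM in WT and 814, 886, 1020, 1012 and 963 RPM in KO. Again WT2 alone lay within the KO range. Its log2 fold change was -0.40 ± 0.16 (interval -0.74 to -0.06, limma adjusted p = 0.220). For rpl7 the libraries had 2225, 1540, 1685, 1789 and 2007 RPM in WT and 1180, 1383, 1635, 1363 and 1455 in KO, a log2 fold change of -0.39 ± 0.17 (limma adjusted p = 0.246). Log2 fold changes were -0.39 ± 0.17 for rpl39 of the exit tunnel (limma adjusted p = 0.257) and -0.37 ± 0.16 for rpl10a of the L1 stalk (limma adjusted p = 0.263).

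The stalks of the large subunit recruit translation factors and guide tRNA. Their 3 members, rplp0, rpl12 and rpl10a, had a median log2 fold change of -0.35. The level of rplp0, the base of the stalk that factors bind to, was 3233, 2818, 2602, 3283 and 2974 RPM in WT and 1921, 2393, 2610, 2344 and 2448 in KO. WT3 and KO3 crossed narrowly, at 2602 and 2610 RPM. The genes rpl5 and rpl11, whose products bind the 5S RNA and in mammals restrain Mdm2 when ribosome assembly fails, had log2 fold changes of -0.28 and -0.26. The 6 exit tunnel members (rpl4, rpl17, rpl23a, rpl31, rpl35 and rpl39) had a median of -0.24 with a range of -0.39 to -0.20, and the 25 remaining large subunit members a median of -0.27. The highest fold changes were those of rpl21 (1370 ± 79.1 RPM in WT and 1243 ± 116 in KO, -0.14) and rpl28 (1302 ± 129 and 1181 ± 171 RPM, -0.15). Among the most abundant, rpl7a had 3059 ± 209 and 2582 ± 193 RPM, rpl13a 2897 ± 250 and 2439 ± 178, and rpl32 2843 ± 220 and 2358 ± 260, at -0.25, -0.25 and -0.27.

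**Figure D4:**
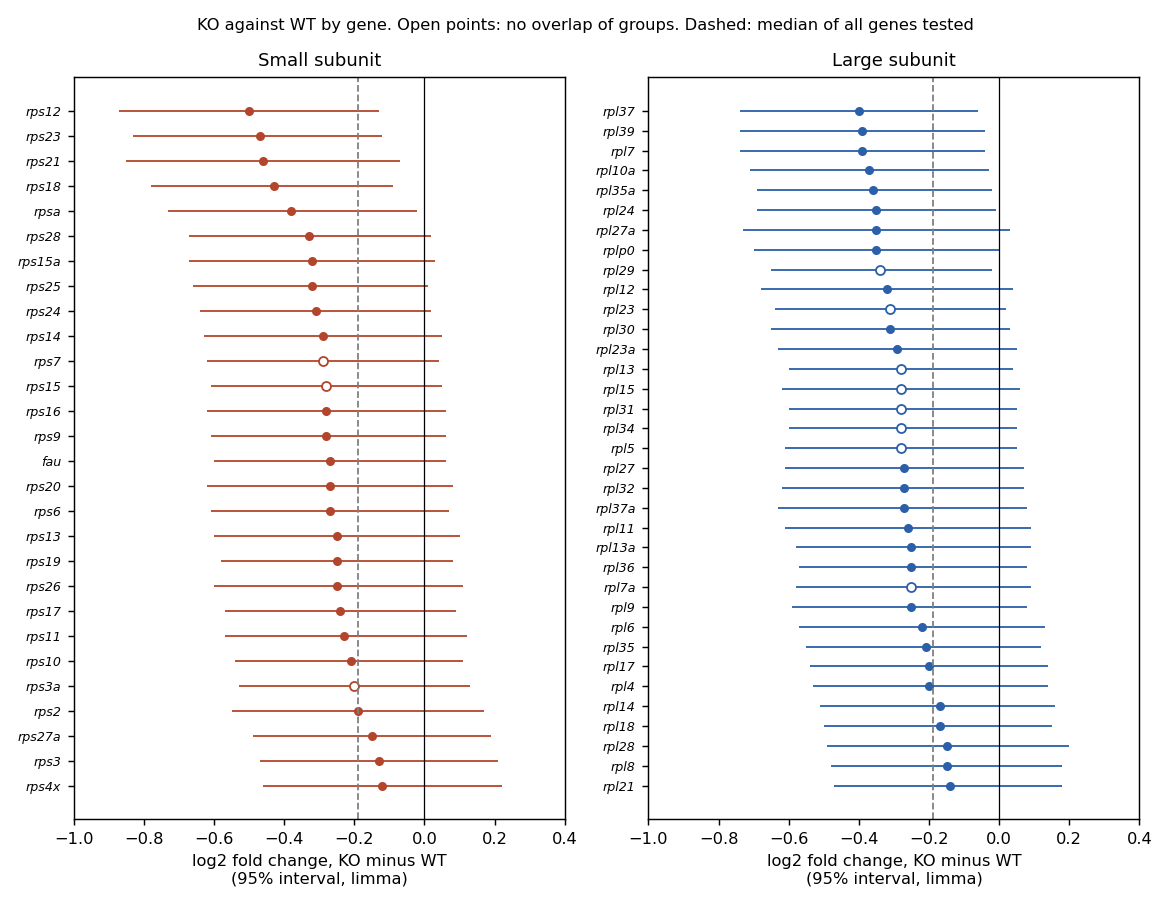
Log2 fold change of 63 of the 66 ribosomal protein genes (x axis, KO minus WT on the log2(RPM + 1) scale) with its 95% interval from limma, small subunit left and large subunit right. Open points are the 11 genes without overlap between the groups, the dashed line is the median of all genes tested (-0.19), and every point lies below 0.

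In 11 of the 66 members all 5 KO libraries lay below all 5 WT libraries, 3 of the small and 8 of the large subunit, where this held for 2.60% of all genes tested. The share among members was 16.7%. The 2.60% covers genes of every level that passed the RPM filter, while the members averaged 271.3 to 2820 RPM. This background was not matched for level. The members also moved together from library to library, so the 11 are not independent of each other. No member had the opposite pattern, which 1.03% of all genes tested had. The 11 genes were rps7, rps15 and rps3a, and rpl29, rpl23, rpl13, rpl15, rpl31, rpl34, rpl5 and rpl7a. Their log2 fold changes ran from -0.34 to -0.20. The level of rpl29 was 769, 809, 768, 774 and 906 RPM in WT and 548, 675, 660, 638 and 664 in KO (-0.34 ± 0.15). For rpl23 it was 2081, 1937, 2045, 2099 and 2256 RPM in WT and 1420, 1579, 1830, 1828 and 1795 in KO (-0.31 ± 0.16). In rps7, at 2144 ± 197 and 1750 ± 120 RPM, the gap between WT2 and KO3 was only 1863 to 1850 RPM. Left out singly, WT2, KO3 and KO4 moved these counts by over 1.5 times: without WT2 they were 16 and 18 for the small and large subunit, without KO3 5 and 14, and without KO4 7 and 8. Leaving out a library can only keep or raise such a count, and the share over all genes tested was not taken there. Measured against the reads outside the egg protein genes, 22 and 24 members had no overlap (4.19% of all genes tested). After TMM scaling all 66 members had overlap, where 0.941% of all genes tested lay apart and lower in KO and 2.14% apart and higher.

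The median of the members was below 0 under each scaling and test in the plot of medians by setting, but its size differed. With TMM scaling the median log2 fold change was -0.06 in the small and -0.07 in the large subunit, against -0.01 over all genes tested, and 52 of 66 members stayed below 0, against 51.4% of all genes tested. Here too the members are not independent of each other. Median-of-ratios scaling, edgeR and DESeq2 gave -0.08, -0.07 and -0.08 in both subunits. Rescaling to the reads outside the egg proteins gave -0.41 in both, with -0.31 over all genes. In that fit 1 member, rps23, was called lower (-0.61, limma adjusted p = 0.0460; 2.85% of all genes tested). Quantile scaling, which gives each library the same distribution of values, left the members at -0.25 and -0.28 while the median of all genes was -0.01. The median of the members minus that of all genes was -0.05 under TMM, -0.08 as deposited, -0.10 outside the egg proteins and -0.26 with quantile scaling. Leaving out KO2 brought it to -0.01 on the deposited scale, and leaving out WT5 to -0.04.

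**Figure D5:**
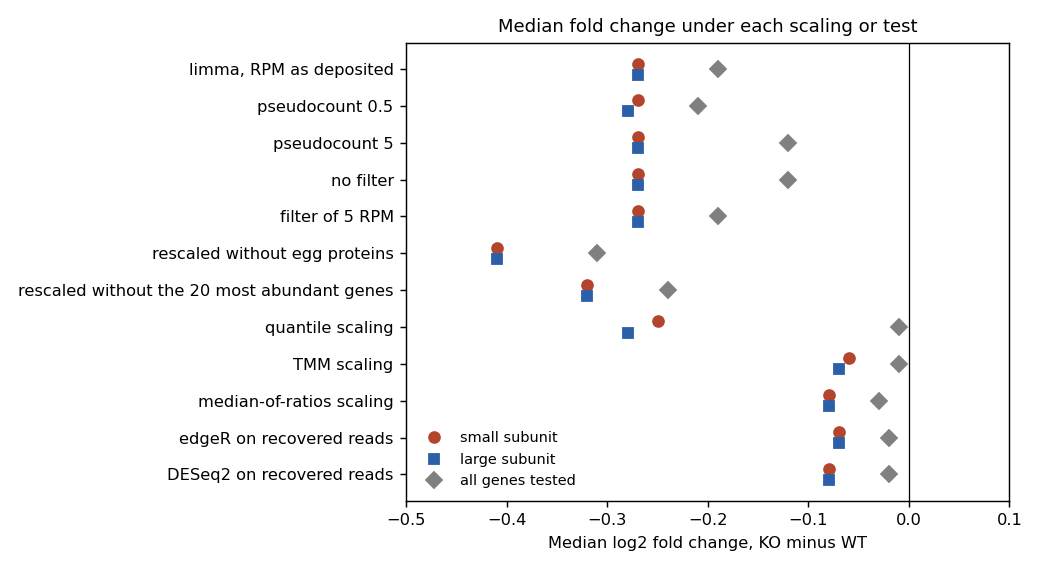
Median log2 fold change (x axis, KO minus WT) of the small subunit (circles), the large subunit (squares) and all genes tested (diamonds) under each scaling or test. Members lie left of all genes in every line, from -0.41 outside the egg proteins to -0.06 with TMM scaling.

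The make-up of the ribosomal protein transcript pool showed no difference that passed the test. When each library was scaled to its ribosomal protein sum, the log2 fold changes of the 66 members ran from -0.23 to 0.15, and 51 of them lay within 0.1 of 0. In limma on these values 0 members were called, and 0 had an unadjusted p under 0.05 (3.12% of all genes tested were called). The lowest was rps12, whose mean share of the pool was 1.69% ± 0.144 for WT and 1.44% ± 0.143 for KO libraries (limma adjusted p = 0.551). The share of rps23 was 1.79%, 1.68%, 1.82%, 1.75% and 1.80% in WT and 1.52%, 1.34%, 1.65%, 1.56% and 1.61% in KO, without overlap. That of rps27a was 1.86%, 1.79%, 1.82%, 1.57% and 1.73% in WT and 1.87%, 1.91%, 1.92%, 1.88% and 1.93% in KO, also without overlap but higher in KO. These 2 genes are 3.03% of the members, and 3.38% of all genes tested had no overlap on this scale, so the members' share is near the background.

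The pairs of members whose symbols differ only by a final letter encode unrelated proteins, and 8 such pairs are given here. Within such pairs the log2 fold changes were -0.39 for rpl7 and -0.25 for rpl7a, and -0.40 for rpl37 and -0.27 for rpl37a. For rpl35 and rpl35a they were -0.21 and -0.36, and for rpl27 and rpl27a -0.27 and -0.35. The pairs rpl13 with rpl13a (-0.28 and -0.25), rpl23 with rpl23a (-0.31 and -0.29), rps15 with rps15a (-0.28 and -0.32) and rps3 with rps3a (-0.13 and -0.20) lay closer together. None of these values passed limma, and the difference within a pair was not tested.

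Many ribosomal protein genes hold genes of small nucleolar RNAs (snoRNAs), which guide the modification of ribosomal RNA, inside their own bounds. By the RefSeq annotation, 24 of the 66 members had at least 1 snoRNA gene inside, 36.4% of them, against 0.426% of the 14319 protein-coding genes tested. These 24 genes held 48 snoRNA genes, from 1 to 4 each, with 4 in rpl7a and 4 in rps7. Of these snoRNA genes 31 had a read in at least 1 library, at no more than 6.16 RPM. The median log2 fold change was -0.25 in the 24 host genes and -0.28 in the other 42 members. Beside the snoRNAs, 10 members overlap another gene in the table, among them rpl4, rpl7, rpl17, rpl27, rpl37a and rps27a. The sources used here do not say whether strand was used in counting or how reads shared with near-identical copies were assigned, so levels of these genes may hold reads of others.

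Genes that work with the ribosome showed single calls. Of 11 tested companions of the ribosome 1 fell and 0 rose in limma, against 1.68% of all genes tested called lower and 1.17% higher. The median log2 fold change was -0.22, near the -0.19 of all genes tested, and -0.02 under TMM. The gene that fell was rpl22l1, a paralog of the ribosomal protein gene rpl22, at 521.5, 478.5, 367, 547 and 667 RPM in WT and 220.5, 375, 330, 245 and 269 in KO. Only WT3 and KO2 crossed, and the log2 fold change was -0.84 ± 0.19 (limma adjusted p = 0.0230). Its call was lost under TMM (limma adjusted p = 0.0809), with edgeR (adjusted p = 0.236), with DESeq2 (0.0646), with the replicate number as a block (limma adjusted p = 0.0532) and when KO1, KO4, KO5, WT1, WT4 or WT5 was omitted, 6 of 10 such fits, with limma adjusted p-values of at most 0.0706. The rpl22l1 call was also lost with median-of-ratios scaling (limma adjusted p = 0.0721) and without the RPM filter (limma adjusted p = 0.0674). The small subunit scaffold gene rack1 (1922 ± 147 and 1687 ± 129 RPM, -0.19) did not pass.

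Of 115 tested ribosome biogenesis factors, which process ribosomal RNA and assemble the subunits in the nucleolus, 1 fell and 0 rose, against 1.68% of all genes tested called lower and 1.17% higher. The median log2 fold change of the list was -0.27, and -0.09 under TMM. The gene that fell was ebna1bp2, of large subunit assembly, at 20.7, 11.03, 21.6, 27.3 and 31.0 RPM in WT and 7.83, 9.25, 9.96, 10.8 and 10.7 in KO. WT2 came near the KO libraries without crossing them (-1.06 ± 0.27, limma adjusted p = 0.0383). The call was lost under TMM (limma adjusted p = 0.0991), with edgeR (adjusted p = 0.143), with the replicate number as a block (limma adjusted p = 0.0565) and in 8 of 10 fits with a single library omitted, with limma adjusted p-values of at most 0.125. Median-of-ratios scaling, quantile scaling and omission of the RPM filter lost it too (limma adjusted p = 0.0896, 0.108 and 0.0864). The call held without WT2, without WT3 and with DESeq2 (adjusted p = 0.0363). The helicase gene ddx18 came next, at 43.4 ± 8.02 and 24.2 ± 6.23 RPM (-0.84 ± 0.22, limma adjusted p = 0.0512), followed by zcchc9 (-1.27) and noc2l (-1.03). In 6 of the 115 genes the KO libraries lay below all WT libraries, where this held for 2.60% of all genes tested.

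Of 16 tested genes of RNA polymerase I, which transcribes ribosomal RNA, and of its factors 0 passed limma, with a median of -0.13 that turned to 0.04 under TMM, and znrd1, polr1b, twistnb and ubtf at 0.61, -0.63, 0.53 and -0.28. The 74 mitochondrial ribosomal protein genes, whose products form the separate ribosome of that organelle, had a median of -0.22 (-0.03 under TMM) and 0 calls, with 50 of 74 below 0. The lowest p-values were those of mrps30 (1.18) and mrpl58 (-0.89). Of 18 other genes with TOP messages 0 passed, at a median of -0.10 that turned to 0.11 under TMM, and 10 of 18 lay below 0 as deposited. Among them eef1b2, an elongation factor subunit, had 1402 ± 110 and 1082 ± 160 RPM (-0.38 ± 0.16, limma adjusted p = 0.245), and tpt1 had 1716 ± 69.0 and 1586 ± 179 (-0.12). The list of TOR signalling and Larp1 also held larp4, larp4b, myc, mycn and mlx. In this list 1 of 21 genes rose and 0 fell, at a median of -0.03 that turned to 0.11 under TMM. Of all genes tested 1.17% were called higher and 1.68% lower. The single riser, ddit4, which holds TOR back under stress, stood at 13.7, 26.96, 45.4, 34.6 and 19.99 RPM in WT and 85.4, 62.1, 114.5, 193 and 148 in KO. All KO libraries lay above all WT libraries (2.06 ± 0.31, limma adjusted p = 0.00138; edgeR adjusted p = 0.0117), and the call held whichever of the 10 libraries was omitted. The next genes of the list, rragc (-0.90, limma adjusted p = 0.0969) and eif4ebp3 (0.78, limma adjusted p = 0.143), did not pass. The levels of larp1 were 65.97 ± 7.87 and 58.5 ± 7.92 RPM and those of mtor 10.9 ± 2.04 and 12.4 ± 2.23 RPM, neither of which passed.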

How the data were processed

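Per the labels' protocols, liver RNA was made into 3' libraries with Lasy-Seq; Salmon 1.4.0 and BWA 0.7.17-r1188 appear, their roles unstated, per the submitters' processing notes. The genome build is not given in the sources used here. Values deposited by the authors are RPM for 25795 genes, not divided by length. All IDs were matched to RefSeq symbols (assembly ASM223467v1), used for names and for which genes lie beside or inside each other. Divided by the library's smallest positive value, all values came out whole within 1e-06 of a read (1 read = 0.0989 to 0.220 RPM). In KO5 this step is close to 0.1, so count tests used the other 9 libraries. Pairs among these 9 within a group differed by more than sampling noise (chi-square per degree of freedom 14.6 to 140.1).

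The 14984 genes that reached 1 RPM in 5 or more libraries were tested in R 4.3.3 with limma 3.58.1 (variance trend, two-sided, Benjamini-Hochberg over all genes tested) on log2(RPM + 1), which slightly understates changes of low genes. On simulated data with 200 of 14984 genes changed, this step called 75% of 4-fold and 14% of 2-fold changes, 5.32% of its calls were unchanged genes, and it made 0 calls when no gene was changed. The simulated noise was independent between genes, without shifts shared by a library, and the changed genes were drawn from all levels. These rates need not hold for the members or for the real libraries. Alternatives included edgeR 4.0.16 and DESeq2 1.42.0 on recovered reads. Replicate numbers did not pair the libraries (see the dependence on processing). Some genes stay in sums and counts but are not reported here by name. Members and lists were chosen with earlier results of these data known. Named members are, by subunit, the 4 highest means, 4 smallest p, 2 highest and 2 lowest fold changes and 2 lowest means, the 6 of smallest p without overlap, and symbol pairs; of other lists, up to 4 by smallest p. The genes fau, rpsa, rps6, rps19, rps27a, rpl12, rpl11, rack1, tpt1, larp1 and mtor were named for their role or after their values were seen. The groups by place in the ribosome, and the scaling to the ribosomal protein sum, were added after the data were seen.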

Additional observations from a re-analysis of the deposited data

Results flagged for a closer look

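In 3 of the 70 group values checked (the named members and the subunit shares, WT and KO apart), 1 library stood apart from the other 4 of its group. Chance alone marks about 1 in 20 such groups. The genes moved together from library to library, so the 70 are not independent and the 3 are not separate events. Each time the library was KO1, at the low end: rpl13 had 970 RPM there against 1131 to 1196 in the other KO libraries, rpl29 had 548 RPM against 638 to 675, and rps15 had 1590 RPM against 1877 to 1983. KO1 also had the lowest TMM factor, at 0.773.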

How the results depend on the processing

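The member counts called by limma stayed at 0 in both subunits and directions under each alternative except rescaling without egg proteins, where 1 small subunit gene was called lower. The median log2 fold change of -0.27 became -0.06 (small) and -0.07 (large) with TMM, -0.08 and -0.08 with median-of-ratios, -0.07 and -0.07 with edgeR, -0.08 and -0.08 with DESeq2, and -0.41 in both without egg proteins. Leaving out 1 library gave -0.32 to -0.22 in the small and -0.31 to -0.22 in the large subunit. The difference in the share of reads, -0.883 and -1.08 percentage points, was -1.44 and -1.76 without egg proteins, -0.177 and -0.236 with TMM and -1.71 and -2.09 without the 20 most abundant genes, and -1.05 to -0.744 and -1.24 to -0.899 with 1 library left out. The totals differ between scalings, so these points do not rank them. The WT mean share of all members was 11.7% as deposited, 13.1% without egg proteins and 19.4% without the 20 most abundant genes. Without those 20 genes the median log2 fold change was -0.32 in both subunits. Members without overlap numbered 3 and 8, 22 and 24 without egg proteins, 0 and 0 with TMM, 10 and 13 without the 20 most abundant genes, and 3 to 16 and 8 to 18 with 1 library left out. Without both WT3 and KO2, chosen after seeing the data, they numbered 4 and 12. The share over all genes tested was not taken with libraries left out or without the 20 most abundant genes. Some fold changes below 0 turned positive, none passing the test. With TMM, median-of-ratios, edgeR and DESeq2 the log2 values were 0.07, 0.05, 0.04 and 0.03 for rpl21, 0.06, 0.05, 0.08 and 0.06 for rpl28, 0.02, 0.00, 0.03 and 0.02 for rps2, 0.08, 0.06, 0.07 and 0.06 for rps3, and 0.09, 0.08, 0.09 and 0.08 for rps4x. For rps27a they were 0.06, 0.05, 0.05 and 0.04, and with TMM rps3a was at 0.01. The cause was not tested. Same-numbered WT and KO libraries did not deviate together (correlations -0.08 to 0.00, and 0 of 5 WT libraries matched their own number best); with the replicate block 0 members were called, the medians stayed at -0.27 and 335 genes were called in all, against 427. Counts of genes called over the whole table differed by over 1.5 times from 175 higher and 252 lower with TMM (303 and 131), median-of-ratios (296 and 143), quantile scaling (231 and 165), no filter (73 and 103), without egg proteins (147 and 427), library weights (322 and 435), edgeR (131 and 47) and DESeq2 (310 and 179). Leaving out a single library gave 94 to 365 higher and 104 to 479 lower, and moved at least 1 of these counts by over 1.5 times for each library but KO2. The most were called without WT3 (365 and 479), the fewest higher without KO4 (94) and the fewest lower without WT1 (104).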
